A study of Mus musculus with 12 samples.

Results

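The 10 genes described here write, keep or remove methyl groups on cytosine in DNA, repair the products or carry a methyl-binding domain. Dnmt3a, Dnmt3b and Dnmt3l stand for de novo methylation, Dnmt1 and Uhrf1 for maintenance, and Tet1, Tet2 and Tet3 for oxidation. Tdg and Mbd3 are a repair glycosylase and a methyl-binding-domain protein. All 10 were chosen by name, with earlier results of these data known. They are 10 of the 23427 genes in the deposited expression table, and all 10 were among the 10991 genes with a value in every library and a mean of at least 1 RPKM (a read count divided by gene length and by depth). The table lists 7 of them by their current symbol. Tet1, Tet2 and Tet3 stand in it under the older names Cxxc6, E130014J05Rik and D230004J03Rik and were found by Entrez identifier.

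The study measured RNA by sequencing in cardiomyocytes that had been differentiated in culture from CM7/1, a mouse embryonic stem cell line. There were 4 libraries, 1 in each group: Hey2-overexpressing cells with 1000 ng/ml doxycycline for 48 h (induced) and without it (uninduced), and Hey1-overexpressing cells, induced and uninduced in the same way. Hey1 and Hey2 are transcriptional repressors that act downstream of Notch. The Hey2 and Hey1 cells are called the Hey2 line and the Hey1 line here, and whether each is 1 clone is not given in the sources used here. Cells with doxycycline and no Hey gene to induce were not analysed here, so Hey induction and the drug cannot be told apart, and likewise line and culture.

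In mammalian DNA most methylation sits on cytosines followed by guanine. Dnmt3a and Dnmt3b place it on unmethylated DNA, helped by the catalytically inactive cofactor Dnmt3l, and Dnmt1 copies it to the new strand after replication, brought there by Uhrf1, which binds hemimethylated sites. The Tet dioxygenases oxidise methylcytosine with the help of 2-oxoglutarate, iron and oxygen, and Tdg cuts out the more oxidised bases so that base excision repair can restore plain cytosine. Early embryonic cells and embryonic stem cells are known for high Dnmt3b, Dnmt3l and Tet1, and embryonic stem cells divide fast and hold much Uhrf1 and Dnmt1.

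The libraries held 2296145 to 4182141 reads in listed genes, recovered from the whole-read steps of the RPKM. Values are blank under a floor of about 5 reads in the Hey2 line and 10 in the Hey1 line. Hey2 had 6.59 RPKM (173 reads) in the induced library of its line, against a blank cell in the uninduced one, and Hey1 had 8.59 RPKM, against 0.735 RPKM, in its own. The 12 cardiomyocyte markers (Myh6, Tnnt2, Nkx2-5 and others) were all listed in all 4 libraries, but their summed level was 1220 and 1183 RPKM in the induced and uninduced Hey2 line, against 20764 and 19821 RPKM in the induced and uninduced Hey1 line. The 11 pluripotency markers (Pou5f1, Nanog, Sox2 and others) summed to 440 and 422 RPKM in the induced and uninduced Hey2 line, against 33.7 and 43.3 RPKM in the Hey1 line, and the 14 cell cycle markers to 465 and 487 RPKM, against 69.0 and 83.2 RPKM. None of these markers was blank. Of other cell types, the 7 fibroblast markers summed to 80.9 and 63.1 RPKM in the induced and uninduced Hey2 line, against 37.4 and 43.3 RPKM in the Hey1 line, with Lum blank in the Hey1 line. The 6 endothelial markers summed to at most 7.66 RPKM in a library, the 6 neuronal markers to at most 24.5 RPKM, and the 6 yolk sac endoderm markers to 9.82 and 10.7 RPKM in the induced and uninduced Hey2 line, against 45.2 and 61.7 RPKM in the Hey1 line. The label of cardiomyocytes is thus carried by libraries with very unlike marker levels, and since these are bulk cultures, fewer cells of a type and less RNA per cell cannot be told apart. How much of each difference between the lines goes with these markers was not tested.

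Promoters of 4 of the genes are shown as 300 bases each, from 250 before to 50 after a RefSeq start on GRCm38.p6. Dnmt3b is the member with the highest Hey2-to-Hey1 ratio, Uhrf1 and Dnmt1 are the maintenance pair, and Tet3 is the member with the lowest such ratio. Dnmt3b is at chr2:153649199-153649498 on the plus strand, the second listed start of Uhrf1 at chr17:56304063-56304362 on the plus strand, the third listed start of Dnmt1 at chr9:20952574-20952873 on the minus strand and Tet3 at chr6:83441629-83441928 on the minus strand. The capitals mark the E2F letters TTTCCCGC, TTTCGCGC, TTTGCCGC or TTTGGCGC and the E-box letters CACGTG or CACGCG, each searched on both strands, and no match overlaps another in the windows shown.
Dnmt3b: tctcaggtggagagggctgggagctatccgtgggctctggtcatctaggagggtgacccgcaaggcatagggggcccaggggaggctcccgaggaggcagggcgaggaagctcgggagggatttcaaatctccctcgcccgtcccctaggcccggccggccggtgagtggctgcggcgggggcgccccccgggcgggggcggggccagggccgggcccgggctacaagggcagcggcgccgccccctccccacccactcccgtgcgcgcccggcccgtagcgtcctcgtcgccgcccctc
Uhrf1: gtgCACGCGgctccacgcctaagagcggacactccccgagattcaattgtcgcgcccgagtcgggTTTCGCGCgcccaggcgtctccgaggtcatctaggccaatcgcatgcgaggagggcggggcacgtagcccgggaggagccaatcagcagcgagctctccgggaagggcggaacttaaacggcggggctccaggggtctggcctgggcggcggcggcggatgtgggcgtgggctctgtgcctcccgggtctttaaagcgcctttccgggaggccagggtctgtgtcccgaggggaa
Dnmt1: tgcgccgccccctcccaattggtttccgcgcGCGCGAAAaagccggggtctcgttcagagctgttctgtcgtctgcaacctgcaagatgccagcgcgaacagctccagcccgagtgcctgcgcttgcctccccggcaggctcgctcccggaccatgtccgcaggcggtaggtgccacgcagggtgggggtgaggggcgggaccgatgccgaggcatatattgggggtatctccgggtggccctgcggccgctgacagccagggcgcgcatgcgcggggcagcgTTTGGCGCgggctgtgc
Tet3: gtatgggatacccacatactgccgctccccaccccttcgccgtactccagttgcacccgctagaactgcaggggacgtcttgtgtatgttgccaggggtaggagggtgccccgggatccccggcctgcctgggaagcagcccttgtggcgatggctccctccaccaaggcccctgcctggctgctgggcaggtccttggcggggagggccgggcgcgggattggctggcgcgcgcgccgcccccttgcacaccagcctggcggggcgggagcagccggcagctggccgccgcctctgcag
E2F letters stood in 2 of the 17 promoters of the 10 genes, those of Dnmt1 and Uhrf1 shown above, against 744 of 32851 RefSeq promoters (2.26%). The other listed starts of these genes, the first and second of Dnmt1 and the first of Uhrf1, held neither E2F nor E-box letters. In those windows CG occurred 2, 12 and 12 times. E-box letters, of the kind Hey proteins are known to bind, stood in 4 of the 17, belonging to Uhrf1, Dnmt3a, Dnmt3l and Tdg, against 5050 of 32851 (15.4%). The sequence CG itself, the substrate of these enzymes, occurred 30 times in the Dnmt3b window, 33 times in each of the Uhrf1 and Dnmt1 windows and 22 times in that of Tet3, and between 2 and 57 times over all 17, where the highest was Tet2; the median over all RefSeq promoters was 7. A match to these letters is a description of the sequence and not a binding site.

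**Figure D1:**
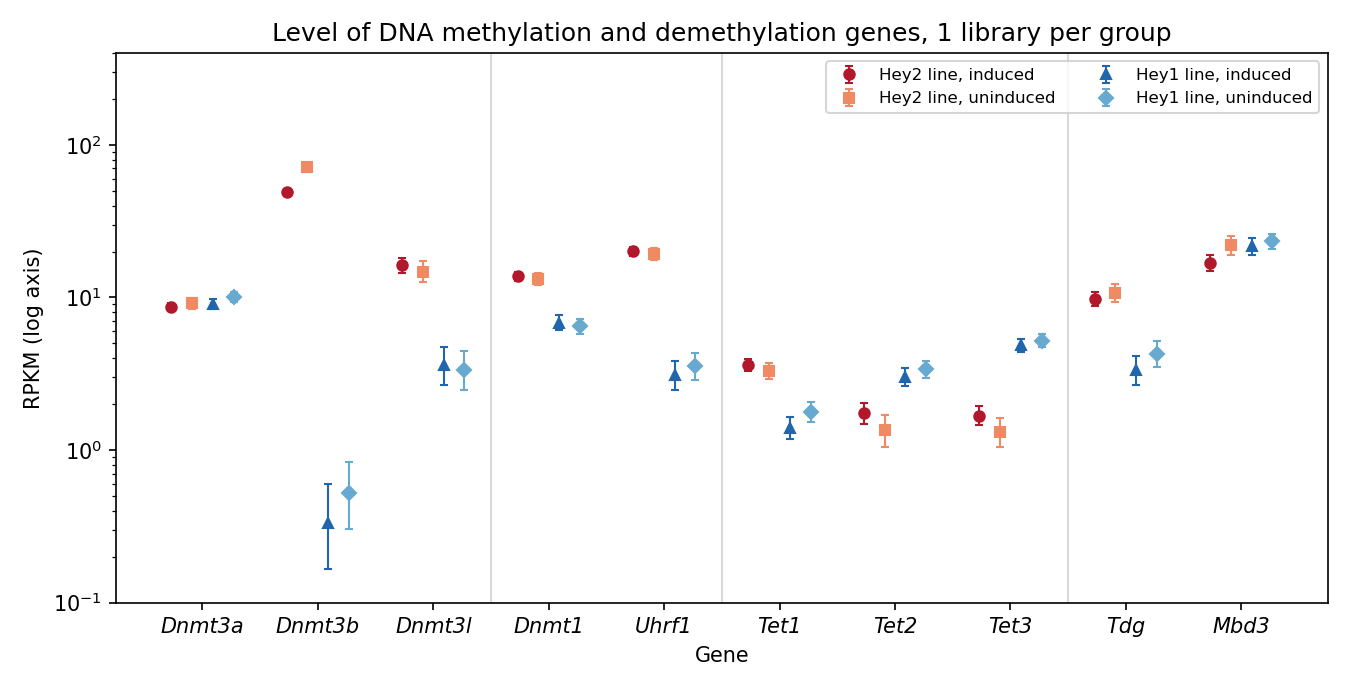
RPKM (log axis) of each of the 10 genes in each library, with the Hey2 line left of the Hey1 line and the induced left of the uninduced library; bars are 95% Poisson intervals, which cover counting error only. Dnmt3b lies at 49.4 and 71.4 RPKM in the Hey2 line and under 1 RPKM in the Hey1 line, whereas Dnmt3a lies between 8.65 and 10.1 RPKM in all 4 libraries.

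The first comparison asks how the 2 lines differ. Of the 10 transcripts Dnmt3b differed most: it was 149-fold higher in the induced Hey2 line than in the induced Hey1 line and 137-fold higher in the uninduced pair. Both times this was the largest ratio of the 10991 compared genes, a set that leaves out every gene blank in any library. Dnmt3a, the paralog of Dnmt3b, was within its counting interval of equal. Dnmt3l, Uhrf1, Tdg, Dnmt1 and Tet1 were also higher in the Hey2 line, Tet2 and Tet3 were higher in the Hey1 line, and Mbd3 was 1.28-fold lower in the induced Hey2 line and within counting error in the uninduced pair. Each ratio below has an exact 95% interval for counting error, and with 1 library in each group no ratio has a replicate check. The intervals do not cover the choice of scaling. With scaling by median ratios, the induced ratio was 1.61 for Dnmt1, 2.07 for Tet1 and 5.18 for Uhrf1. Mbd3 was then 1.60-fold, Tet2 2.17-fold and Tet3 3.63-fold lower in the induced Hey2 line. Each of these lay outside its induced interval below. Dnmt3b at 118, Dnmt3l at 3.58 and Tdg at 2.35 stayed inside theirs.

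Dnmt3b, a de novo methyltransferase, had 49.4 RPKM (2260 reads) in the induced and 71.4 RPKM (1812 reads) in the uninduced Hey2 line, against 0.332 RPKM (11 reads) and 0.521 RPKM (17 reads) in the induced and uninduced Hey1 line. Its levels in both Hey2-line libraries were far above those in both Hey1-line libraries. The ratio of the Hey2 to the Hey1 line was 149 (82.8 to 298) in induced cells and 137 (85.4 to 236) in uninduced cells, and the width of both intervals comes from the few reads in the Hey1 line. In the uninduced Hey2 line Dnmt3b stood at percentile 98.0 of the listed genes, and in the uninduced Hey1 line at percentile 3.96.

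Dnmt3a, the other de novo methyltransferase, had 8.65 and 9.14 RPKM in the induced and uninduced Hey2 line, against 9.07 and 10.1 RPKM in the induced and uninduced Hey1 line. The lines overlapped. Its ratio was 0.954 (0.862 to 1.06) in induced and 0.908 (0.811 to 1.02) in uninduced cells, with 523 to 893 reads in each library. These intervals leave out a 2-fold difference either way as far as counting goes. With scaling by median ratios the Dnmt3a log2 difference was -0.36 in induced and -0.34 in uninduced cells, lower in the Hey2 line.

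Dnmt3l, the cofactor without catalytic activity that is best known from germ cells and embryonic stem cells, had 16.2 and 14.8 RPKM in the induced and uninduced Hey2 line, against 3.61 and 3.37 RPKM in the Hey1 line. Both Hey2-line values lay above both Hey1-line values, at a ratio of 4.49 (3.33 to 6.16) in induced and 4.38 (3.15 to 6.20) in uninduced cells. Dnmt3l lies beside and partly over the gene Aire, which had 20 reads in the induced and 6 in the uninduced Hey2 line, against 317 and 160 reads for Dnmt3l, and was blank in the Hey1 line.

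The balance within the family turned over between the lines. Dnmt3b was 5.71 times the Dnmt3a level (5.28 to 6.17) in the induced and 7.81 times (7.08 to 8.63) in the uninduced Hey2 line, while Dnmt3a was 27.3 times the Dnmt3b level (15.2 to 54.9) in the induced and 19.3 times (12.0 to 33.4) in the uninduced Hey1 line. As a share of the summed RPKM of Dnmt3a and Dnmt3b, Dnmt3b held 85.1% and 88.7% in the induced and uninduced Hey2 line, against 3.53% and 4.92% in the Hey1 line. The sum itself was 58.0 and 80.6 RPKM in the induced and uninduced Hey2 line, against 9.41 and 10.6 RPKM in the Hey1 line. Dnmt3l was 1.87 and 1.61 times the Dnmt3a level in the induced and uninduced Hey2 line, against 0.398 and 0.335 times in the Hey1 line.

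Uhrf1, which recruits Dnmt1 to hemimethylated DNA, had 20.1 and 19.3 RPKM in the induced and uninduced Hey2 line, against 3.09 and 3.56 RPKM in the Hey1 line. Its ratio was 6.50 (5.21 to 8.18) in induced and 5.42 (4.35 to 6.80) in uninduced cells. Dnmt1, the maintenance methyltransferase, had 13.8 and 13.2 RPKM in the induced and uninduced Hey2 line, against 6.83 and 6.46 RPKM in the Hey1 line. Both genes were higher in both Hey2-line libraries, but Dnmt1 by less, at 2.02 (1.77 to 2.29) and 2.05 (1.77 to 2.37) in induced and uninduced cells. Accordingly Uhrf1 was 1.46 and 1.45 times the Dnmt1 level in the induced and uninduced Hey2 line, against 0.452 (0.354 to 0.574) and 0.550 (0.435 to 0.692) times in the Hey1 line. The Uhrf1 ratio between the lines was close to the median over the 14 cell cycle markers, 6.34 in induced and 5.99 in uninduced cells; the Dnmt1 ratio was below it.

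The 3 Tet genes went in different directions. Tet1 had 3.61 and 3.29 RPKM in the induced and uninduced Hey2 line, against 1.39 and 1.78 RPKM in the Hey1 line. Tet2 had 1.74 and 1.34 RPKM in the Hey2 line, induced and uninduced, against 3.02 and 3.37 RPKM in the Hey1 line. Tet3 had 1.68 and 1.31 RPKM in the Hey2 line, induced and uninduced, against 4.87 and 5.22 RPKM in the Hey1 line.

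Tet1 was thus 2.60-fold (2.16 to 3.14) and 1.85-fold (1.53 to 2.24) higher in the induced and uninduced Hey2 line. Tet2 was 1.73-fold (1.41 to 2.14) and 2.51-fold (1.91 to 3.32) lower in the Hey2 line, induced and uninduced, and Tet3 2.90-fold (2.43 to 3.46) and 3.99-fold (3.14 to 5.12) lower. No library of one line overlapped with the other line for any of the 3. The summed Tet level differed less than its parts, at 7.04 and 5.94 RPKM in the induced and uninduced Hey2 line, against 9.28 and 10.4 RPKM in the Hey1 line. Tet1 made up 51.4% and 55.3% of that sum in the induced and uninduced Hey2 line, against 15.0% and 17.1% in the Hey1 line, where Tet3 held 52.4% and 50.3%. Tet2 and Tet3 were level with each other in the Hey2 line, at a ratio of 1.04 (0.838 to 1.28) and 1.03 (0.738 to 1.43), and Tet3 was ahead in the Hey1 line, with Tet2 at 0.621 (0.522 to 0.736) and 0.646 (0.548 to 0.761) of it.

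**Figure D2:**
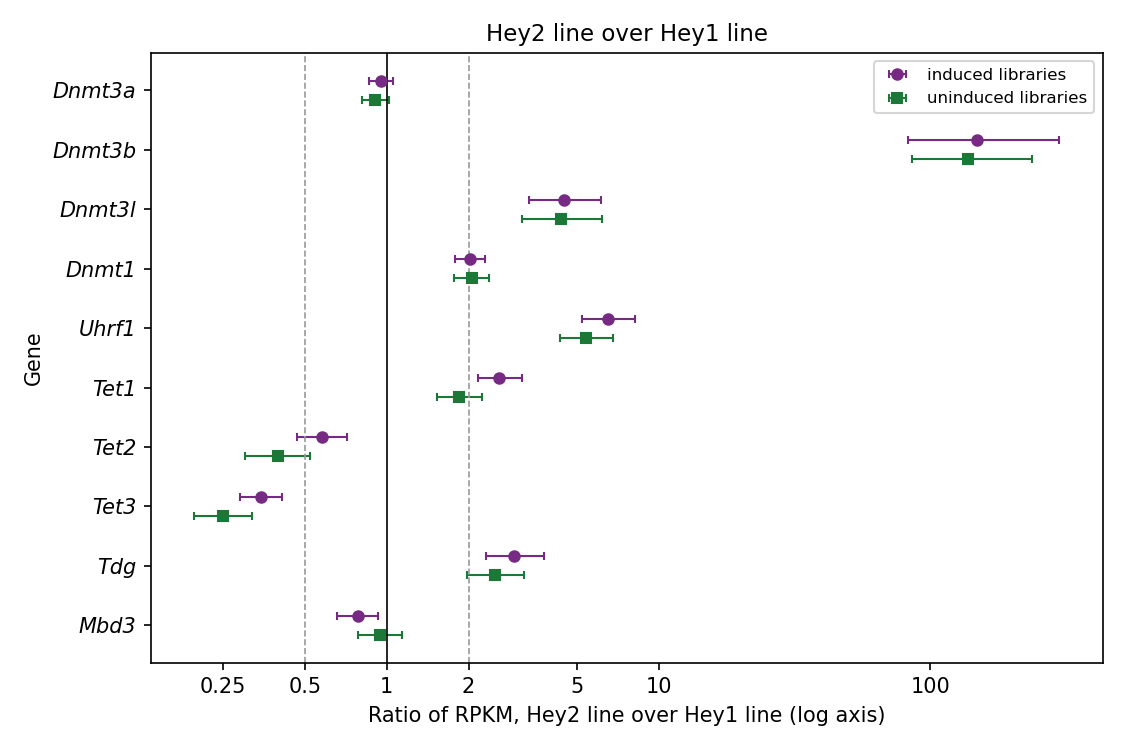
Ratio of RPKM, Hey2 line over Hey1 line (log axis), for each gene in the induced (upper) and uninduced (lower) libraries; bars are exact 95% counting intervals, the solid line marks equal levels and the dashed lines 2-fold. Dnmt3b stands near 140, far to the right of the others, Dnmt3a and Mbd3 stand near 1, and Tet2 and Tet3 stand left of 1.

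**Figure D3:**
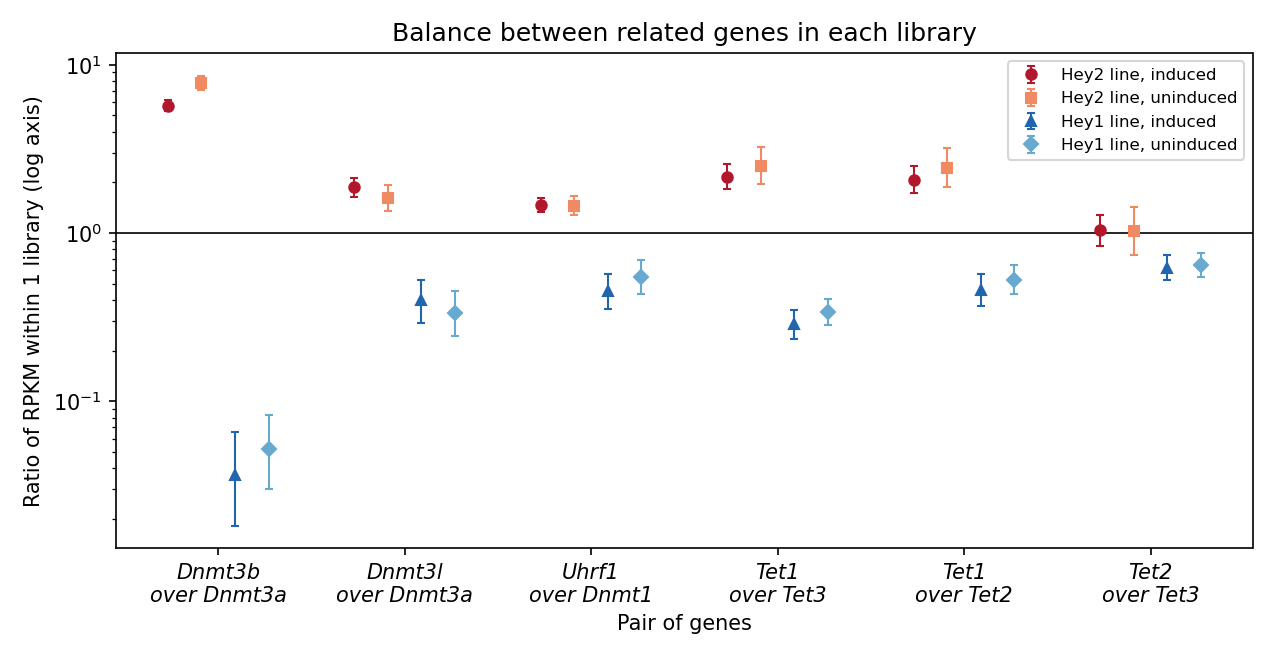
Ratio of the RPKM of 2 related genes within 1 library (log axis), with the Hey2 line left of the Hey1 line; bars are exact 95% counting intervals and the solid line marks equal levels. In each of the 6 pairs drawn the ratio is above 1 in both Hey2-line libraries and below 1 in both Hey1-line libraries, though for Tet2 over Tet3 the Hey2-line intervals include 1.

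Tdg, the glycosylase that excises oxidised methylcytosine and thymine from mismatches, had 9.81 and 10.7 RPKM in the induced and uninduced Hey2 line, against 3.33 and 4.27 RPKM in the Hey1 line, a ratio of 2.94 (2.31 to 3.79) and 2.50 (1.97 to 3.20). Its reads cannot be told apart from those of the pseudogene Tdg-ps2, which had 337 and 204 reads in the Hey2 line and 83 and 105 reads in the Hey1 line, against 338, 204, 83 and 105 for Tdg, so the level of Tdg is uncertain. Mbd3, a subunit of the NuRD deacetylase and remodelling complex, had 16.9 and 22.0 RPKM in the induced and uninduced Hey2 line, against 21.6 and 23.3 RPKM in the Hey1 line. The ratio of Mbd3 was 0.782 (0.658 to 0.930) in induced cells and 0.944 (0.783 to 1.14) in uninduced cells.

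Counted by size, 4 of the 10 genes were at least 2-fold higher in the uninduced Hey2 line on the log2(RPKM + 1) scale (Dnmt3b at 5.57, Uhrf1 at 2.15, Dnmt3l at 1.85 and Tdg at 1.15) and 1 was lower (Tet3 at -1.43). Over all compared genes 19.7% were higher and 13.1% lower by that much, 32.8% in all. In induced cells the same count was 4 higher and 1 lower of 10, against 22.8% and 12.3% of all compared genes, 35.2% in all. The median over the 10 was 0.78 in uninduced and 0.93 in induced cells, and the median over all compared genes 0.20 and 0.27. Counting intervals left out 1 for 6 genes on the higher and 3 on the lower side in induced cells and for 6 and 2 in uninduced cells, where 48.1% and 29.2% of all compared genes did so in induced cells and 44% and 28.9% in uninduced cells. With scaling by median ratios the median of all genes was 0.00 in induced and 0.01 in uninduced cells, and the uninduced count for the 10 became 3 higher and 2 lower, without Tdg and with Tet2; over all compared genes it became 1579 higher and 1805 lower, where RPKM gave 2167 and 1439. In induced cells the genes went to 1708 higher and 1911 lower, where RPKM gave 2509 and 1357. The counts also depend on the pseudocount. At 0.1 RPKM, 5 of the 10 were higher and 2 lower in uninduced cells, against 2788 and 1793 of all compared genes. In induced cells it was 6 higher and 1 lower of the 10, against 3123 and 1706.

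Ordered by level, Dnmt3b led in both Hey2-line libraries, apart from the next gene by more than its counting interval, and came last in both Hey1-line libraries. Mbd3 led in both Hey1-line libraries, followed by Dnmt3a and Dnmt1, each apart from the next. Uhrf1, Mbd3, Dnmt3l and Dnmt1 came next after Dnmt3b in the induced Hey2 line, and neighbours among them had overlapping intervals. Below Dnmt3a, the Hey2-line order ended with Tet1, Tet2 and Tet3, of which the last 2 overlapped. In the Hey1 line Tet3 came right after Dnmt1, its interval overlapping that of the gene after it, and Tet1 ranked just above Dnmt3b.

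Genes of the most similar pattern were found by the smallest Euclidean distance of log2(RPKM + 1) over the 4 libraries, after each gene's mean was removed. For Dnmt3b they were Lin28a, a pluripotency-associated RNA-binding protein, at a distance of 0.559, and Cdh1, the epithelial cadherin, at 0.696. Both are loose matches, since the distances for the other members below were between 0.00305 and 0.0677. Lin28a had 51.7 and 57.0 RPKM in the induced and uninduced Hey2 line, against 0.728 and 0.932 RPKM in the Hey1 line. For Uhrf1 they were Etv5 and Cbx7, for Dnmt3l Cebpz and Aspm, and for Dnmt1 Ywhaz and Slc7a6os. Tet1 was nearest to Ccl25 and Nipa2, Tet2 to Aplp1 and Enpp4, and Tet3 to Trak2 and Cnst. Dnmt3a was nearest to Bloc1s2 and Smim1, Mbd3 to Diablo and Cracd, and Tdg to Nup93 and its own pseudogene. With 4 values to a gene, such likeness is a description of these libraries.

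The wider machinery around these enzymes was described with 7 lists, each by its counts and median on the log2(RPKM + 1) scale in uninduced cells, where the median over all compared genes was 0.20 and 19.7% of them were higher and 13.1% lower by 2-fold or more. Each count below is to be read against those shares. Of 15 compared partners and targeting factors, 9 were higher in the Hey2 line by 2-fold or more and 0 lower, with a median of 1.16. The list holds 20 genes, all with a value in both Hey2-line libraries. Dppa3, Dppa4 and Prdm14 were blank in both Hey1-line libraries, and Suv39h2 and Dppa2 in the induced one, so these were not compared. Hells, the chromatin remodeller needed for methylation of repeats, had 37.8 and 38.0 RPKM in the induced and uninduced Hey2 line, against 0.972 and 1.52 RPKM in the Hey1 line, a ratio of 25.0 (17.7 to 36.4) in uninduced cells. Its activator Cdca7 was 15.0-fold (10.3 to 22.8) and the DNA ligase Lig1 4.84-fold (3.93 to 5.99) higher in uninduced cells. The smallest differences of that list were those of Ehmt2 at a ratio of 1.08 (0.907 to 1.27), Smchd1 at 1.09 (0.982 to 1.20) and Nsd1 at 1.66 (1.47 to 1.88).

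Of 11 compared readers and related proteins, 2 were at least 2-fold higher in the uninduced Hey2 line and 1 lower, near the shares of all compared genes, with a median of -0.10. The glycosylase Mbd4 was 6.62-fold (3.70 to 12.7) and the Uhrf1 paralog Uhrf2 3.27-fold (2.68 to 4.02) higher, and Zbtb33, a zinc finger reader also called Kaiso, 2.22-fold (1.60 to 3.12) in RPKM, which falls short of 2-fold on the scale of the count. Zbtb4 was 3.28-fold (2.35 to 4.67) and Mbd2 1.65-fold (1.22 to 2.24) lower in the Hey2 line. Of 12 NuRD genes, 3 were at least 2-fold higher and 1 lower, with a median of 0.74. Hdac1, Rbbp7 and Mta1 had the highest ratios, at 2.46 (1.45 to 4.27), 2.33 (2.10 to 2.60) and 2.26 (1.92 to 2.68), and the remodeller Chd3 was 5.25-fold (4.45 to 6.23) lower. Gatad2b at 0.796 (0.567 to 1.11) and Gatad2a at 1.46 (1.29 to 1.65) had the next lowest differences of that list on the log2(RPKM + 1) scale.

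Of 13 compared base excision repair and deaminase genes, 4 were at least 2-fold higher and 2 lower, with a median of 0.31. Neil2, Ung and Apex1 were 3.63-fold (2.05 to 6.74), 3.23-fold (2.48 to 4.24) and 2.71-fold (2.19 to 3.38) higher. Gadd45g, a stress-response gene, was 15.8-fold (10.3 to 25.4) and Apobec2, a deaminase relative known from heart and skeletal muscle, 5.74-fold (4.49 to 7.43) lower in the uninduced Hey2 line, and Smug1 stood at a ratio of 0.726 (0.490 to 1.06).

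Of 12 compared genes of the methyl donor cycle, 6 were at least 2-fold higher in the uninduced Hey2 line and 1 lower, with a median of 0.81. Shmt1, a serine hydroxymethyltransferase, was 4.42-fold (3.53 to 5.56), Ahcy, which removes S-adenosylhomocysteine, 4.21-fold (3.18 to 5.64) and Mthfd1 3.37-fold (2.86 to 3.97) higher. The mitochondrial Shmt2 was 2.34-fold (1.92 to 2.87) lower, Mtr 1.44-fold (1.15 to 1.82) lower, and Mat2b stood at 1.06 (0.906 to 1.24). Of 10 genes of 2-oxoglutarate and Tet cofactor metabolism, 3 were at least 2-fold higher and 3 lower, with a median of -0.43. The cytosolic isocitrate dehydrogenase Idh1 was 4.37-fold (3.67 to 5.23) higher and Ogt 2.33-fold (2.05 to 2.64). The mitochondrial Idh2, Ogdh and Idh3g were 4.91-fold (4.36 to 5.55), 3.56-fold (3.27 to 3.88) and 3.38-fold (2.92 to 3.92) lower.

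The last list holds germline genes known to be silenced by DNA methylation in somatic cells. Of 15 genes, 14 are in the table, and 11 and 10 had a value in the induced and uninduced Hey2 line, against 3 in each Hey1-line library. Of all 23427 genes, 15095 and 14177 had a value in the induced and uninduced Hey2 line, against 12198 and 12311 in the Hey1 line, where the floor was higher (10 reads, against 5). The 3 with values in all libraries were Stk31 at a ratio of 9.14 (6.18 to 14.0), Tex19.1 at 2.50 (1.66 to 3.83) and Sycp3 at 1.75 (1.01 to 3.06) in uninduced cells. Dazl, an RNA-binding protein of germ cells, had 2.11 and 1.41 RPKM in the induced and uninduced Hey2 line and was blank in the Hey1 line.

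**Figure D4:**
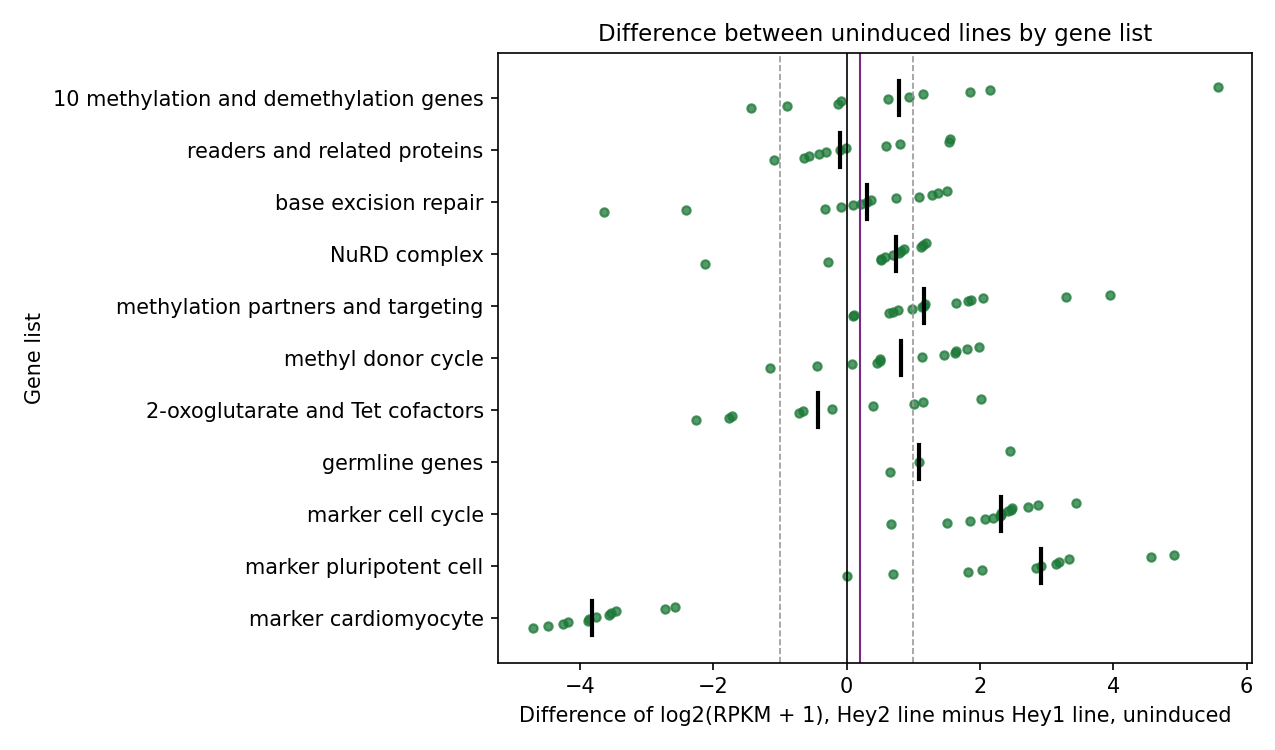
Difference of log2(RPKM + 1), uninduced Hey2 line minus uninduced Hey1 line, for the compared genes of each list; each point is a gene, short black bars are list medians, dashed lines mark 2-fold and the purple line is the median of all compared genes (0.20). The 12 cardiomyocyte markers lie left of -2 and the medians of the cell cycle and pluripotency markers lie right of 2, while the 10 methylation and demethylation genes spread over both sides.

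The second comparison asks what Hey2 induction did within its line. Dnmt3b was 1.45-fold lower and Mbd3 1.30-fold lower in induced than in uninduced cells, 2 of the 10 genes whose counting interval left out 1 on the lower side, where 6.63% of all compared genes did; on the higher side it was 0 of the 10, against 8.04%. Tet2 and Tet3 were about 1.3-fold higher, with intervals that reach 1, and the other 6 genes lay between a ratio of 0.918 and 1.10.

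Dnmt3b had 49.4 RPKM in induced cells, against 71.4 RPKM in uninduced cells, a ratio of 0.691 (0.650 to 0.736), which ranked 344 of 10991 from the lowest. Mbd3 had 16.9 RPKM in induced cells, against 22.0 RPKM in uninduced cells, a ratio of 0.769 (0.639 to 0.927). The lower Dnmt3b stood beside a Dnmt3a level of 8.65 RPKM in induced and 9.14 RPKM in uninduced cells, at a ratio of 0.946 (0.849 to 1.06), and a Dnmt3l ratio of 1.10 (0.905 to 1.34). The maintenance genes Dnmt1 at 1.04 (0.931 to 1.16) and Uhrf1 at 1.04 (0.926 to 1.18) were level within counting error. Tdg stood at 0.918 (0.770 to 1.10).

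Tet2 had 1.74 RPKM (166 reads) in induced cells, against 1.34 RPKM (71 reads) in uninduced cells, a ratio of 1.30 (0.976 to 1.74). Tet3 had 1.68 RPKM (190 reads) in induced cells, against 1.31 RPKM (82 reads) in uninduced cells, a ratio of 1.28 (0.986 to 1.68). The Tet1 ratio was 1.10 (0.948 to 1.28). These 3 genes have long models of 9181 to 14082 bases. Across 10987 genes the Hey2 induction difference of log2(RPKM + 1) went with gene length (Spearman's rho of 0.23 across genes, which are not independent). With the length trend of the ratio removed, the Tet2 ratio was 1.18, that of Tet3 1.16 and that of Tet1 0.997. Fibroblast markers were higher on Hey2 induction too, 6 of the 6 compared, where 5427 of all 10991 compared genes were higher. The median ratio of these markers was 1.27, and their part in the Tet values was not tested.

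A ratio of at least 5 to 4 either way was reached by 4 of the 10 genes, 2 higher (Tet2 and Tet3) and 2 lower (Dnmt3b and Mbd3), against 9.64% higher and 9.63% lower of all compared genes, 19.3% in all. With the length trend removed 2 remained, Dnmt3b and Mbd3. None of the 10 reached 2-fold, as did 0.0455% of compared genes.

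The third comparison asks the same of Hey1. Here 8 of the 10 genes were lower in induced than in uninduced cells, but by little, and 6767 of 10991 compared genes were lower too. Cell cycle markers were lower in 13 of 14 cases, with a median ratio of 0.837, pluripotency markers in 11 of 11, at 0.781, and fibroblast markers in 6 of 6; their part in the values of the 10 genes was not tested. Tet1 was 1.28-fold lower, Tdg 1.28-fold lower and Dnmt3b 1.57-fold lower on few reads, and Tet1 was the 1 of the 10 whose counting interval left out 1 on the lower side, where 13.5% of all compared genes did; on the higher side it was 0 of the 10, against 4.88%.

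Tet1 had 1.39 RPKM (147 reads) in induced cells, against 1.78 RPKM (185 reads) in uninduced cells, a ratio of 0.784 (0.627 to 0.979). Tdg had 3.33 RPKM in induced cells, against 4.27 RPKM in uninduced cells, a ratio of 0.780 (0.578 to 1.05), with the same doubt about its pseudogene. Dnmt3b had 11 reads in induced cells, against 17 in uninduced cells, so its ratio of 0.638 (0.270 to 1.45) is not known well enough to give a direction. Tet2 stood at 0.896 (0.739 to 1.09) and Tet3 at 0.933 (0.811 to 1.07), Dnmt3a at 0.901 (0.811 to 1.00), Mbd3 at 0.929 (0.781 to 1.10) and Uhrf1 at 0.869 (0.646 to 1.17). Dnmt1 at 1.06 (0.902 to 1.24) and Dnmt3l at 1.07 (0.706 to 1.63) were the members above 1.

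A ratio of at least 5 to 4 was reached by 3 of the 10 genes, all lower (Dnmt3b, Tet1 and Tdg), against 19.9% lower and 6.44% higher of all compared genes, 26.3% in all. Scaling by median ratios left 1, Dnmt3b, with Tet1 at 0.835 and Tdg at 0.831, and split all compared genes past that size into 1247 higher and 1466 lower, where RPKM gave 708 and 2184. None reached 2-fold, as did 0.136% of compared genes.

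**Figure D5:**
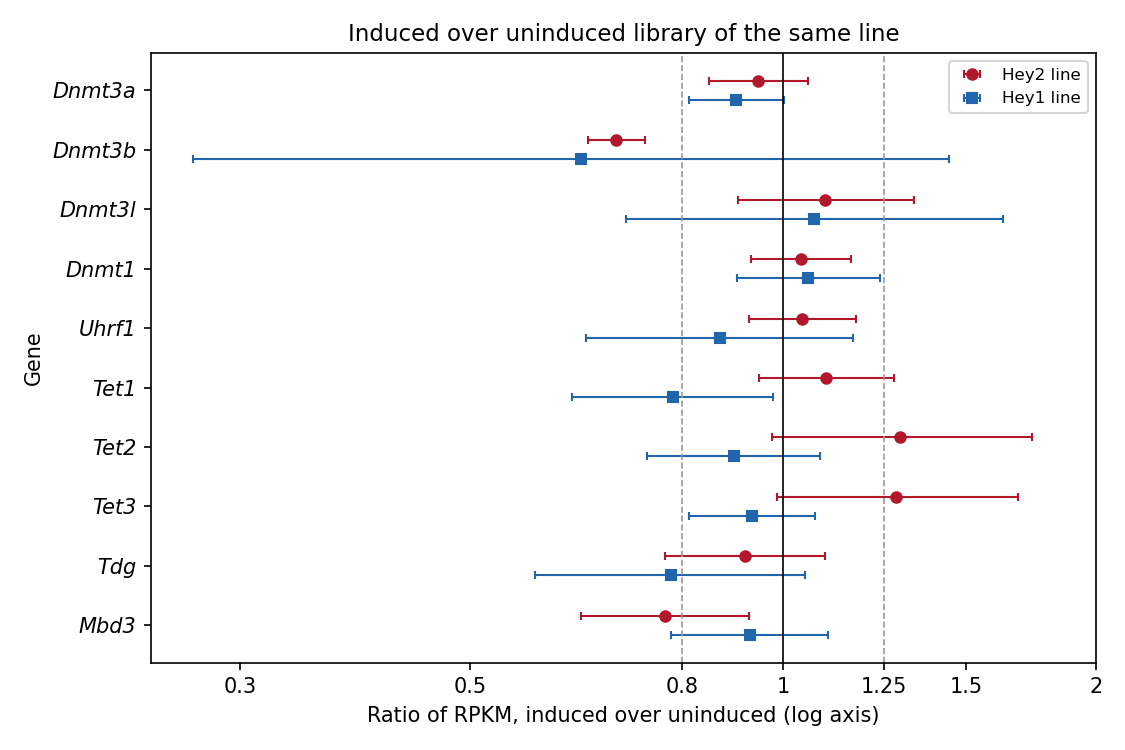
Ratio of RPKM, induced over uninduced (log axis), for each gene in the Hey2 line (upper) and the Hey1 line (lower); bars are exact 95% counting intervals, the solid line marks equal levels and the dashed lines a ratio of 5 to 4 either way. Dnmt3b lies left of the lower dashed line in both lines, with the wide Hey1-line interval of 11 and 17 reads, and the 3 Tet genes lie right of 1 in the Hey2 line and left of 1 in the Hey1 line.

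Genes of the lists around the 10 are named here by an induction ratio of at least 3 to 2 with an interval that leaves out 1. The share of all compared genes that pass this rule was not counted, so the number named is not read as few or many. Such a ratio was seen for Zbtb38, a methyl-CpG binding zinc finger protein, which was 1.55-fold (1.07 to 2.29) higher in the induced than in the uninduced Hey2 line. In the Hey1 line it was seen for Zfp57, which keeps methylation at imprinted regions, at 1.55-fold (1.19 to 2.03) lower, for Shmt1 at 1.52-fold (1.11 to 2.10) lower and for Tex19.1 at 2.08-fold (1.16 to 3.89) lower in induced cells. Among the partners and targeting factors, 0 of 15 reached a ratio of 5 to 4 on Hey2 induction, where 19.3% of all compared genes did, and 4 of 15 were lower by that much on Hey1 induction, against 19.9% of all compared genes. Of the pluripotency markers, 3 of 11 were higher by at least 5 to 4 in the induced than in the uninduced Hey2 line, against 9.64% of all compared genes, and 6 of 11 were lower in the induced than in the uninduced Hey1 line, against the same 19.9%. The part of these markers in the Tet1 and Dnmt3b values was not tested.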

How the data were processed

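RNA was measured in 4 libraries, 1 in each group; 8 chromatin immunoprecipitation samples of the series were not analysed here. The authors deposited RPKM per gene and library, and a signed fold per line, a score that is their ratio of induced to uninduced RPKM or minus its inverse; it was not used for results. Bowtie 1.0, DESeq, MACS 1.4.1 and the mouse build mm9 are named per the submitters' processing notes. On the read counter, strand handling and multiply matching reads nothing is given in the sources used here.

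Blank cells were taken as values under a floor, not as 0. The RPKM are whole multiples of what 1 read is worth, so depths, gene lengths and reads were worked back from them. Whole reads were found for 15363 of 15371 genes (99.9%). For each gene the shortest length that gives whole reads was taken. Where the true reads and length share a factor, this gives too few reads and too wide an interval. With 1 depth set wrong by 1%, 11.7% of 1000 genes tried still gave whole reads. It was 0% when the wrong depth was about as far off but no ratio of whole numbers. Depth divisors were 10.375 and 5.75 M reads for the induced and uninduced Hey2 line and 7.5 and 7.4 M for the Hey1 line. Intervals are exact at 95%, Poisson for a level and conditional binomial for a ratio, and cover counting error only, since PCR copies are not independent. Ratios are of RPKM; log2 differences are of log2(RPKM + 1), which understates changes of low genes.

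Genes with 4 values and a mean of at least 1 RPKM were compared (10991), after 13 exact copies of other entries were left out. With 1 library in each group there is no p-value and no replicate check, so genes were counted by size: 2-fold on the log2 scale, or a ratio of 5 to 4. The 10 genes, the gene lists and the alternatives were chosen with earlier results of these data known. All 10 were named; from each list the 3 largest and 3 smallest differences between the uninduced lines were named, together with any induction ratio of at least 3 to 2 whose interval leaves out 1; some genes that this rule names are not reported here. Of the 172 listed genes, 171 are in the table. Alternatives were another pseudocount, filter, scaling (median ratio, upper quartile), blank cells read as 0 and removal of a gene length trend. Read recovery was tested on simulated data. Sequences are from RefSeq tables of GRCm38.p6, where all 10 genes matched. Python 3.11.15, NumPy 2.4.6, pandas 2.3.3, SciPy 1.17.1 and Matplotlib 3.10.9 were used.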

Additional observations from a re-analysis of the deposited data

Results flagged for a closer look

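The ratio of induced to uninduced RPKM lay on opposite sides of 1 in the 2 lines for 4 of the 10 genes, above 1 in the Hey2 line and below 1 in the Hey1 line. The log2 ratio was higher in the Hey2 line by 0.53 for Tet2, by 0.49 for Tet1, by 0.46 for Tet3 and by 0.26 for Uhrf1. These differences were not tested, since each rests on 1 library per group, and 48.6% of the 10991 compared genes lay on opposite sides. As a ratio of ratios with a 95% counting interval, Tet2 stood at 1.45 (1.03 to 2.02), Tet1 at 1.40 (1.08 to 1.82), Tet3 at 1.38 (1.03 to 1.85) and Uhrf1 at 1.20 (0.882 to 1.63); for 16.9% of 10987 genes this interval left out 1. With the gene length trend removed, the Hey2 induction ratio of Tet1 was 0.997, so Tet1 was no longer on opposite sides. Tet2 and Tet3 then stood at 1.18 and 1.16 on Hey2 induction and at 0.877 and 0.910 on Hey1 induction. Their lines were thus less far apart than in the ratios of ratios above. Those intervals have lower ends close to 1 and do not cover the choice of scaling or length correction.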

How the results depend on the processing

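Every comparison has 1 library per group, so no result can be recomputed with a replicate left out, and depth limits most of all Dnmt3b in the Hey1 line (11 and 17 reads). No paired analysis was possible because each group holds 1 library. Of 268 recomputed values of the 10 genes, 247 lay inside the counting interval of the reported value and 21 outside. Of those outside, 13 were between the induced lines and 7 between the uninduced lines. Changing the filter or reading blank cells as 0 only changes which genes are kept, so such values repeat the reported one. The 247 include them and overstate how well the values hold. With the length trend removed, 3 ratios whose intervals include 1 crossed it. They were Dnmt1 and Tet1 on Hey2 induction, at 0.983 and 0.997, and Mbd3 between the uninduced lines, at 1.03.

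The counts that moved by over 1.5 times were these. On Hey2 induction, genes of at least 2-fold numbered 5, and became 39 with a pseudocount of 0.1 RPKM, 14 with all genes listed in both libraries and 58 (44 higher and 14 lower) with blank cells read as 0. Genes with a ratio of at least 5 to 4 numbered 2117, and became 3759 with all genes listed in both libraries and 831 with a minimum mean of 5 RPKM. The 4 of the 10 genes at that ratio became 2 with a minimum mean of 5 RPKM, a filter that leaves Tet2 and Tet3 out, and 2 with the length trend removed. On Hey1 induction, genes of at least 2-fold numbered 15, and became 82 with a pseudocount of 0.1 RPKM and 127 with blank cells read as 0. Genes with a ratio of at least 5 to 4 numbered 2892, and became 1351 with a minimum mean of 5 RPKM. The 3 of the 10 genes became 1 with median ratio scaling and 1 with upper quartile scaling, which split genes of that ratio into 1052 higher and 1654 lower. Counts between the lines stayed within 1.5 times; with upper quartile scaling the 2-fold split was 1769 higher and 1685 lower in uninduced cells and 1908 and 1733 in induced cells. Causes beyond the filter and the trend were not tested.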
